A study of Rattus norvegicus with 4 samples.

Results

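Solute carriers are the genes whose symbols start with Slc, and the 122 described here were the members of that superfamily with a clear array signal in cultured neonatal rat ovaries. They were chosen by symbol, a family number followed by the letter a and a member number, and by signal: the probe set with the highest mean over the 4 arrays stood for each gene, and genes with a mean of 50 or more were kept. Of 269 solute carrier genes with a probe set of their symbol alone, 122 passed that minimum and 147 did not, among 14217 genes named in this way in all. The mean over the 4 arrays chose the members, so their levels are given as a description. The rule used no difference between the groups, but near the minimum a gene can pass through 1 group alone. Slc12a9, Slc19a1 and Slc25a14 had a control mean below 50, and Slc43a2, Slc26a6 and Slc22a18 a GDNF mean below 50. Of these, Slc12a9, Slc43a2 and Slc26a6 are among the genes counted below as without overlap. Just inside the minimum lay Slc12a9 and Slc26a6 (mean signal 50.1 each) and Slc19a1 (50.3). Just outside lay Slc46a1 (49.9), Slc38a9 (48.7) and Slc12a5 (48.3).

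Solute carriers are membrane proteins that move small molecules without splitting ATP themselves. Some let a solute run down its own gradient, others exchange one solute for another, and many use the sodium or proton gradient that ion pumps maintain. In the ovary the growing oocyte takes up part of its nutrients through the surrounding granulosa cells, to which it is joined by gap junctions. Transporters of granulosa cells for amino acids, pyruvate, zinc and other solutes therefore serve both cells.

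The RNA came from whole ovaries of 4-day-old rat pups, kept for 2 days in organ culture on floating filters. The 2 control samples had no added factor and the 2 GDNF samples were cultured with glial cell line-derived neurotrophic factor, at a dose not given in the sources used here. All 4 shared a medium with 200 ng/ml insulin, 0.05 mg/ml ascorbic acid and 27.5 ug/ml transferrin, some of which are themselves cargo or regulators of transport. Each sample pooled 6 to 10 ovaries on 1 Affymetrix array, and ovaries pooled together came from different animals. Whole ovaries were measured, so fewer cells of a type and less RNA per cell cannot be told apart.

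The signals are Affymetrix MAS5 values on a linear scale, and the deposited arrays share a trimmed mean of 124.6 over the probe sets used. The median signal over all probe sets ran from 36.7 to 41.1 on the 4 arrays, and that of the 122 solute carrier genes from 134 to 149. A signal depends on the probes as well as on the transcript, so signals of different genes do not rank their abundance. The number of arrays limits the precision, and the labels do not state if the 2 samples of a group had separate litters or cultures as their source. P-values therefore measure only how these samples spread, a spread that may be technical in part. In limma's moderated test the spread of each gene is combined with that of other probe sets of similar signal.

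The median difference of the solute carriers between control and GDNF ovaries was smaller than the spread of the samples. The median log2 fold change, GDNF minus control on the scale of log2(signal + 1), was 0.0012 over the 122 genes, against -0.0043 over all 9090 genes chosen by the same rule. Of the 122, the mean was higher with GDNF for 63 and lower for 59. That is 51.6% higher, where 48.8% of all genes were higher and 51.2% lower. Differences were small in either direction, with 94 of 122 (77.0%) within 0.2 log2 units of no change, as were 78.8% of all genes. None of the 122 passed an adjusted p of 0.05 in limma's moderated test, and neither did any of the 18625 probe sets tested (0.0%), of which 508 had an unadjusted p under 0.05. At an unadjusted p under 0.05 there were 6 genes, 2 higher (Slc16a10 and Slc20a1) and 4 lower (Slc23a4, Slc25a53, Slc4a4 and Slc25a24).

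Those 6 are 4.92% of the solute carriers, against 3.34% of all genes. On the higher side the share was 1.64%, with 1.31% of all genes, and on the lower side 3.28%, with 2.04% of all genes. Both GDNF samples lay above both controls for 21 solute carriers (17.2%, with 13.9% of all genes), and below both for 23 (18.9%, with 18.1%). Some of these separations were narrow, as for Slc45a4, where the higher control had 171.8 and the lower GDNF sample 172.1. A 1.5-fold difference or more without overlap was found for 2 genes, Slc23a4 and Slc25a53, both lower (1.64%, with 0.187% of all genes). On the higher side no solute carrier reached 1.5-fold without overlap, where 0.165% of all genes did. The median absolute gap was 0.141 log2 units between the control samples, 0.164 between the GDNF samples and 0.115 between the group means. Over all genes these were 0.127, 0.169 and 0.100. A mean of 2 samples varies less than 1 sample, so the gap between means is not directly comparable with the other gaps. The difference between the groups exceeded the gaps within both groups for 31 of the 122 (25.4%), and for 20.7% of all genes.

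**Figure D1:**
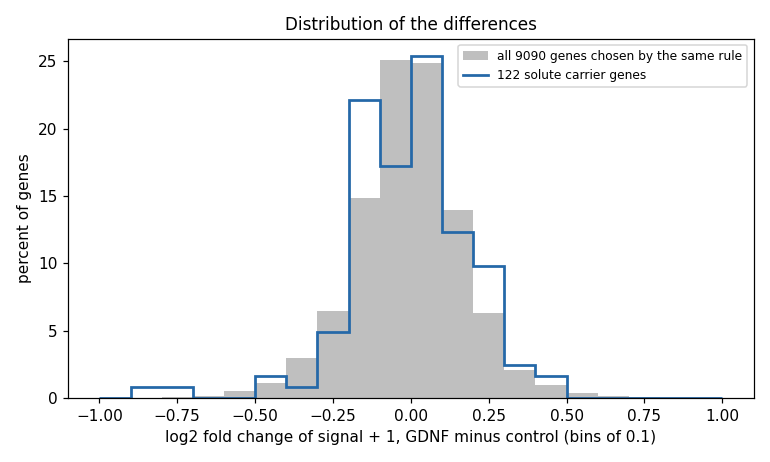
Percent of genes (y axis) in bins of 0.1 log2 fold change, GDNF minus control (x axis), for the 122 solute carrier genes (line) and all 9090 genes chosen by the same rule (grey). Both distributions centre near 0, with medians of 0.0012 and -0.0043, and 2 solute carriers lie below -0.7.

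**Figure D2:**
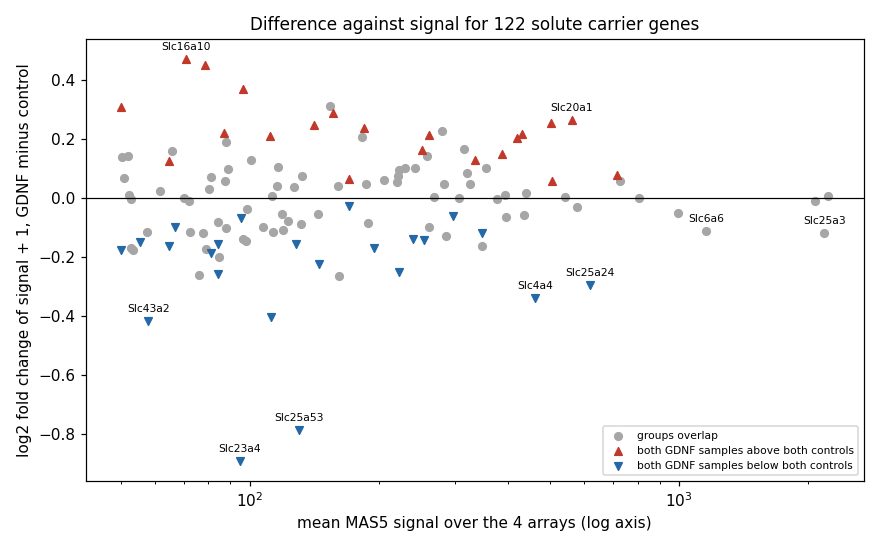
Log2 fold change, GDNF minus control (y axis), against the mean signal over the 4 arrays (x axis, log scale) for the 122 solute carrier genes, with triangles for the 44 whose groups did not overlap. The largest differences, Slc23a4 at -0.89 and Slc25a53 at -0.79, are at mean signals of 94.6 and 130, and the 14 genes with a mean of 500 or more lie between -0.29 and 0.26.

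For several cell types, the marker means ran in 1 direction between the groups in the same samples. No marker tested had an adjusted p under 0.05 in limma's moderated test. The summed signals below are set mostly by the brightest markers, such as Zp2 and Zp3 for oocytes and Krt19 for surface epithelium. Of 9 oocyte markers listed, 5 were measured, and all of these had a higher mean in GDNF, with a summed signal of 3840 and 4799 in the controls and 5098 and 6426 with GDNF. All 5 surface epithelium markers measured, of 6 listed, had a lower mean, with sums of 5391 and 4666 in the controls and 4346 and 4097 with GDNF. So had the 4 smooth muscle markers (269 and 274 in the controls, 192 and 212 with GDNF) and the 4 macrophage and leukocyte markers tested (sums over 5 measured of 242 and 196, and 196 and 155). Of 8 granulosa markers 5 were higher and 3 lower, with sums of 4424 and 4024 in the controls and 4553 and 4220 with GDNF. Of 7 theca and stroma markers 4 were higher and 3 lower, with sums of 8353 and 7838 in the controls and 8220 and 7918 with GDNF. The 3 endothelial markers tested were lower (sums over 4 measured of 1148 and 1123 in the controls and 1032 and 987 with GDNF). Of the erythroid markers 2 were tested and higher (sums over 3 measured of 1487 and 1826, and 1830 and 1791). Adipocyte markers were dim, with sums over 5 of 115 and 45.0 in the controls and 59.9 and 23.6 with GDNF. The brightest of them, Fabp4, had 83.3 and 22.2 in the controls and 32.2 and 8.8 with GDNF. No measured marker was at 0, and Adipoq, Plin1, Lep and Cidec were each below 14 on all arrays. Their part in the solute carrier differences was not tested.

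The gene with the lowest fold change was Slc23a4. In the rat it encodes a sodium-dependent carrier of nucleobases such as uracil, although its family is that of the ascorbate transporters, and it was classed with them by family. Its signal was 141 and 106 in the controls and 66.8 and 64.4 with GDNF. The control samples were the more widely spaced, and both lay above both GDNF samples. The log2 fold change was -0.89 (SE 0.19, limma unadjusted p = 0.0023, adjusted p = 0.999), and leaving out single samples gave -1.09 to -0.69.

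Slc25a53, a mitochondrial carrier family member of unknown substrate, was second. It had 178 and 152 in the controls and 82.5 and 109 with GDNF, again with no overlap. The log2 fold change was -0.79 (SE 0.19, limma unadjusted p = 0.0039, adjusted p = 0.999), and -0.59 without GDNF replicate 1. Each of the pair had 1 probe set of its symbol alone, so no other such probe set bears on either difference. Probe sets with no symbol or with several were not searched for these genes.

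The bases just upstream of these genes are shown because they had the largest differences, beside Slc16a10, which had the highest fold change, and Slc25a5, an abundant housekeeping carrier. The sequences are RefSeq's, build GRCr8, 250 bases ending at the annotated start, written 5′ to 3′ on the gene's strand. Capitals mark matches, on either strand, to the GC box GGGCGG, the CCAAT box CCAAT, the TATA box TATAAA, the E-box CACGTG and the ETS site CCGGAAG. Slc23a4 lies at chr4:64646169-64646418 (minus strand), Slc25a53 at chrX:105111937-105112186 (minus), Slc16a10 at chr20:45122359-45122608 (minus) and Slc25a5 at chrX:120897366-120897615 (plus).
Slc23a4: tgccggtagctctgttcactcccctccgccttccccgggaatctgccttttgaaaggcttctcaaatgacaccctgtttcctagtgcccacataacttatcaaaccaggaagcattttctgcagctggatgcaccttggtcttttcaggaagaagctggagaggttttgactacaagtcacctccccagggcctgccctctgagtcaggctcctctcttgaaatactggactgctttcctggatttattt
Slc25a53: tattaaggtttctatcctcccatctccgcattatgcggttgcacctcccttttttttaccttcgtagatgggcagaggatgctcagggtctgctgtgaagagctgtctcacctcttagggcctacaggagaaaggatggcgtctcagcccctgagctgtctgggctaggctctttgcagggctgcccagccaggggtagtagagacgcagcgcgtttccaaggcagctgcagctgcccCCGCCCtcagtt
Slc16a10: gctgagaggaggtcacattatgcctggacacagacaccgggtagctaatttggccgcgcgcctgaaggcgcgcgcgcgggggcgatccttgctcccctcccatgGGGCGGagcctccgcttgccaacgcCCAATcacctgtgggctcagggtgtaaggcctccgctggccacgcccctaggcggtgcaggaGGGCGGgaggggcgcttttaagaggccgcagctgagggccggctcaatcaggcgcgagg
Slc25a5: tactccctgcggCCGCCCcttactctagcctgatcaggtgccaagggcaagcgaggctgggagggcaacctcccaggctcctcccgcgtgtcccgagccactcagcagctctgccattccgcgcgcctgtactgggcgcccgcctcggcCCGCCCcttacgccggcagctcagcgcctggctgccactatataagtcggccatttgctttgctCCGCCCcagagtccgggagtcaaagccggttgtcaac
The Slc23a4 window held 3 CpG dinucleotides and none of the motifs, the Slc25a53 window 8 and 1 GC box. The windows of Slc16a10 and Slc25a5 held 22 and 20 CpG dinucleotides, with 2 GC boxes and 1 CCAAT box in the former and 3 GC boxes in the latter.

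A promoter was listed for 105 of the 122 solute carriers, and Slc20a1 was not among them. The median window held 17 CpG dinucleotides, as did that of the 7643 matched genes chosen by the same signal rule, against 5 over all 33469 promoters. A GC box was in 64.8% of the solute carrier windows, 61.4% of those of genes chosen by the same rule and 30.5% of all. For the CCAAT box these shares were 37.1%, 36.4% and 34.0%, and for the TATA box 4.76%, 5.93% and 12.9%. The E-box was in 13.3%, 8.70% and 5.59%, and the ETS site in 10.5%, 17.0% and 7.27%. The matches in the printed windows do not overlap one another. A match is a description of the letters and does not show that a factor binds.

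Mitochondrial carriers were the largest class, 28 of the 39 on the array. These proteins carry nucleotides, phosphate, acids and cofactors across the inner mitochondrial membrane, apart from Slc25a17, which sits in peroxisomes, and Slc25a46, in the outer mitochondrial membrane. Of the 28, the mean was higher with GDNF for 14 and lower for 14, with a median of 0.0012. In 5 the GDNF samples lay above the controls and in 5 below (17.9% each, with 13.9% and 18.1% of all genes). None passed the adjusted threshold.

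The carriers that supply oxidative phosphorylation were close to equal. The ADP/ATP carrier Slc25a4 had 2081 and 2067 in the controls and 2117 and 2005 with GDNF, a log2 fold change of -0.0097 (SE 0.09). Slc25a5, the second ADP/ATP carrier, had 2344 and 2095 in the controls and 2315 and 2142 with GDNF (0.0073, SE 0.10). The phosphate carrier Slc25a3 had 2443 and 2099, and 2046 and 2120 (-0.12, SE 0.11). The groups overlapped for all of these, and the fold changes of the ADP/ATP carriers took either sign when 1 sample was left out.

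Slc25a24, a calcium-regulated carrier that exchanges ATP-magnesium for phosphate, had 714 and 649 in the controls and 579 and 531 with GDNF. The control samples lay above both GDNF samples, and the log2 fold change was -0.29 (SE 0.11, limma unadjusted p = 0.032, adjusted p = 0.999). Its relative Slc25a23 was near the minimum signal and overlapped (0.068, SE 0.30). The aspartate/glutamate carriers, which serve the malate-aspartate shuttle, differed in sign. Slc25a12 had 128 and 128 in the controls and 133 and 174 with GDNF (0.25, SE 0.17, and 0.054 without GDNF replicate 2), and Slc25a13 had 200 and 211, and 178 and 188 (-0.17, SE 0.13). The groups overlapped for neither gene, and neither passed an unadjusted p of 0.05.

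Slc25a20, which brings acylcarnitines into mitochondria for fatty acid oxidation, had 224 and 259 in the controls and 284 and 276 with GDNF (0.21, SE 0.13). Slc25a30, of the uncoupling protein branch, had 399 and 379, and 474 and 423 (0.20, SE 0.12). Both were higher in GDNF without overlap. Slc25a48 had the highest fold change of the class but overlapped, with 126 and 142 in the controls and 123 and 224 with GDNF (0.31, SE 0.27). Without GDNF replicate 2 it was -0.12, so its direction rested on that sample. A dimmer probe set of the gene had 0.53, with 59.3 and 79.7 in the controls and 90.8 and 110 with GDNF and no overlap.

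Of the other carriers without overlap, the peroxisomal Slc25a17 (0.078) and the pyrimidine nucleotide carrier Slc25a33 (0.22) had a higher mean in GDNF, and Slc25a16 (-0.069) and Slc25a45 (-0.16) a lower one. The remaining 15 overlapped. They were the citrate carrier Slc25a1, the dicarboxylate carrier Slc25a10, the oxoglutarate carrier Slc25a11, Slc25a14, the ornithine carrier Slc25a15, the glutamate carrier Slc25a22, the iron carrier Slc25a28, Slc25a36 for pyrimidine nucleotides, the glycine carrier Slc25a38, the glutathione carrier Slc25a39, the coenzyme A carrier Slc25a42, Slc25a44 for branched-chain amino acids, and Slc25a46, besides Slc25a23 and Slc25a48. Their fold changes ran from -0.18 (Slc25a22) to 0.31 (Slc25a48).

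**Figure D3:**
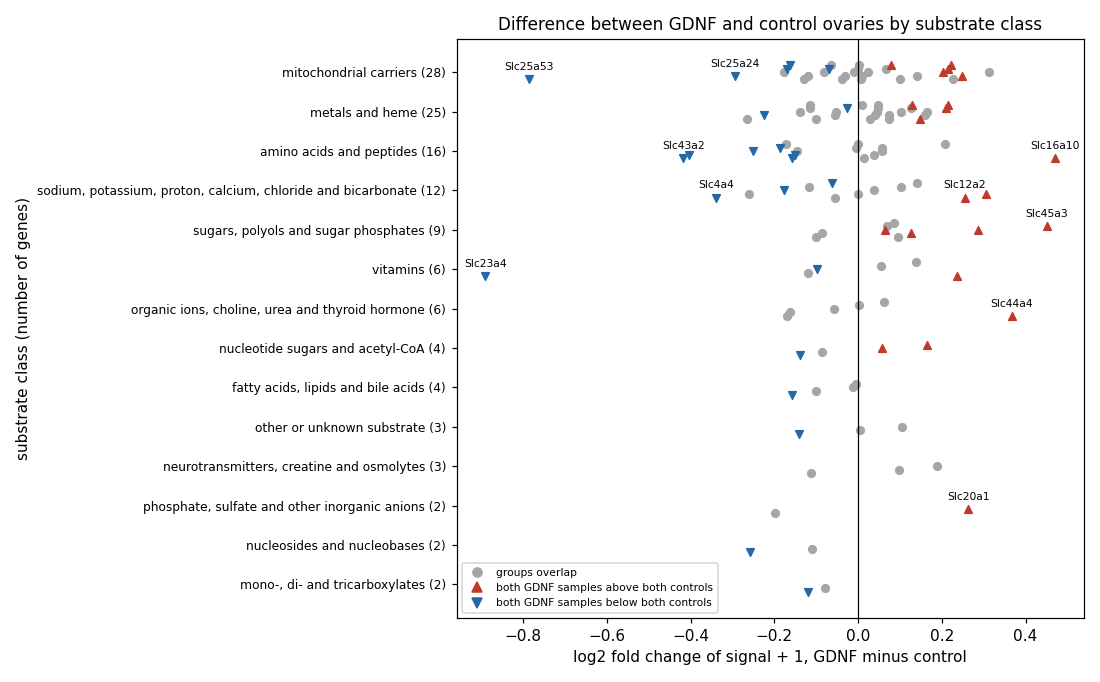
Log2 fold change, GDNF minus control (x axis), of each solute carrier gene by substrate class (y axis, number of genes in parentheses), with triangles where the groups did not overlap. Mitochondrial carriers and metal transporters lie on either side of 0, and Slc23a4 (-0.89) and Slc25a53 (-0.79) stand apart on the lower side.

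Transporters of metals and heme followed, with 25 of the 30 on the array. ZIP proteins (the Slc39 family) bring zinc and other metals into the cytosol, and ZnT proteins (Slc30) move zinc out of it, while Slc11a2, Slc40a1, Slc31a1 and the Slc41 family handle iron, copper and magnesium. Of the 25, the mean was higher with GDNF for 16 and lower for 9, with a median of 0.046. The groups did not overlap for 4 higher (16%, with 13.9% of all genes) and 2 lower genes (8%, with 18.1%). None had an unadjusted p under 0.05, where 3.34% of all genes did.

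Among zinc exporters, Slc30a6, which loads the secretory pathway, had 393 and 402 in the controls and 432 and 492 with GDNF (0.21, SE 0.12), the highest of the class. Slc30a9 (0.15) and Slc30a4 (0.13) were likewise higher without overlap. Slc30a5 (0.047), Slc30a3 (0.13) and Slc30a7 (-0.10) overlapped. Among zinc importers, Slc39a1 had 1048 and 974 in the controls and 945 and 1005 with GDNF (-0.052, SE 0.10). Slc39a8, a carrier of zinc and manganese, was the lowest of the class at 219 and 137 in the controls and 147 and 141 with GDNF (-0.26, SE 0.22), and control replicate 1 stood apart from the other samples. Without it the value was 0.071. Slc39a11 had 156 and 156, and 125 and 142 (-0.22, SE 0.14), lower without overlap. Slc39a14, which also takes up iron, had 81.5 and 76.9, and 74.9 and 87.1 (0.029, SE 0.18). The importers Slc39a3, Slc39a4, Slc39a6, Slc39a7, Slc39a10 and Slc39a13 overlapped, from -0.12 to 0.10.

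Iron transporters overlapped between the groups. Slc11a2, which carries ferrous iron out of endosomes after transferrin uptake, had 275 and 319 in the controls and 302 and 365 with GDNF (0.16, SE 0.14). Slc40a1, the iron exporter ferroportin, had 106 and 120, and 99.3 and 136 (0.039, SE 0.19). Its dimmer probe sets had -0.13 and -0.35, so its direction depended on the probe set. Copper carriers had 0.0084 for Slc31a1 and -0.028 for Slc31a2, the latter without overlap. The 3 dimmer probe sets of Slc31a1 had -0.37, -0.25 and -0.12, all with overlap and opposite to the brightest. Magnesium carriers had 0.074 (Slc41a1), 0.21 (Slc41a2, no overlap) and 0.16 (Slc41a3). The heme carrier Slc48a1 had -0.14, and Slc49a4 0.046.

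Amino acid and peptide transporters had fewer members above the minimum, 16 of 48. Of these, the mean was higher with GDNF for 7 and lower for 9, with a median of -0.075. In 6 (37.5%, with 18.1% of all genes) the GDNF samples lay below the controls and in 1 (6.25%, with 13.9%) above. None passed the adjusted threshold.

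The gene on the higher side was Slc16a10, a carrier of aromatic amino acids and thyroid hormone. It had 53.2 and 66.1 in the controls and 80.8 and 84.3 with GDNF, with no overlap. The log2 fold change was 0.47 (SE 0.19, limma unadjusted p = 0.045, adjusted p = 0.999), and 0.32 without control replicate 1. Slc43a2, a facilitative carrier of large neutral amino acids, was the lowest at 72.7 and 60.2 in the controls and 50.7 and 47.9 with GDNF (-0.42, SE 0.20). It passed the minimum signal through its controls (mean 66.45, against 49.3 with GDNF). The glutamate transporter Slc1a3 had 141 and 114 in the controls and 104 and 87.6 with GDNF (-0.40, SE 0.18). Its dimmer probe sets had -0.49 and -0.15, in the same direction. Slc7a6, which exchanges cationic for neutral amino acids, had 230 and 252, and 182 and 225 (-0.25, SE 0.15). These 3 were lower in GDNF without overlap, as were Slc7a7 (-0.16), Slc38a1 (-0.19) and Slc43a1 (-0.15). A dimmer probe set of Slc38a1 had 0.11.

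Several amino acid transporters that follicles are known to use overlapped. Slc38a2, a sodium-coupled carrier of alanine and other neutral amino acids, had 715 and 708 in the controls and 773 and 710 with GDNF (0.058, SE 0.10). Slc3a2, the heavy chain that brings several Slc7 carriers to the membrane, had 421 and 453, and 477 and 408 (0.015, SE 0.12). Its light chain partner Slc7a5 was below the minimum, at 27.5 to 40.2 over the 4 samples. Slc7a11, the cystine/glutamate exchanger, had 57.4 and 48.5 in the controls and 51.1 and 54.1 with GDNF (-0.0050, SE 0.21), with overlap. Slc1a5, a glutamine carrier, had 119 and 86.7, and 106 and 78.8 (-0.15, SE 0.23). Its replicates differed by more than the groups.

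Slc6a9, the glycine transporter known from oocytes and early embryos, had 114 and 135 in the controls and 108 and 151 with GDNF (0.038, SE 0.20). Leaving out 1 sample at a time took the value from -0.20 to 0.28. Its dimmer probe sets had 0.049, with overlap, and 0.47, with 29.3 and 28.8 in the controls and 38.4 and 43.1 with GDNF and no overlap. The other members of the class also overlapped, with 0.21 for the lysosomal histidine and peptide carrier Slc15a4, 0.00065 for Slc38a10, 0.058 for the cationic amino acid carrier Slc7a1 and -0.17 for the lysosomal Slc66a1. Slc38a3, known from cumulus cells of later follicles, was at 5.50 to 10.6 in the 4 samples.

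Ion transporters of the sodium, potassium, proton, calcium, chloride and bicarbonate class numbered 12 of 36, 6 higher and 6 lower, with a median of -0.028. Slc4a4, which carries sodium and bicarbonate together, had 515 and 512 in the controls and 451 and 365 with GDNF. The control samples were nearly equal and the GDNF samples both lower. The log2 fold change was -0.34 (SE 0.13, limma unadjusted p = 0.037, adjusted p = 0.999), and -0.19 without GDNF replicate 2. A dimmer probe set of Slc4a4 had -0.023, with 53.1 and 49.5 in the controls and 73.1 and 34.7 with GDNF.

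Slc12a2, which brings in sodium, potassium and chloride together, had 424 and 496 in the controls and 537 and 557 with GDNF, with no overlap (0.25, SE 0.12, limma unadjusted p = 0.069, adjusted p = 0.999). Without control replicate 1 it was 0.14. Slc12a9 passed the minimum through its GDNF samples (mean 55.5, against 44.8 in the controls) and had the highest fold change of the class, 40.6 and 48.9, and 58.9 and 52.0 (0.31, SE 0.22), close to the minimum signal. Slc4a7 (-0.063) and Slc26a6 (-0.18) were lower without overlap. A dimmer probe set of Slc4a7 had 0.35, with 28.2 and 18.7 in the controls and 34.1 and 25.5 with GDNF. Slc26a6 passed the minimum through its controls (mean 53.25, against 46.95 with GDNF). The remaining genes overlapped and ran from -0.26 for the anion exchanger Slc4a3 to 0.14 for the calcium exchanger Slc24a3. They were the potassium-chloride carriers Slc12a4 and Slc12a7, Slc12a1, the sodium-calcium exchanger Slc8a1 and the anion exchanger Slc4a2. Slc4a1, the anion exchanger of red blood cells, was at 8.5 to 11.9.

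Sugar and polyol transporters numbered 9 of 19, and 7 had a higher mean in GDNF. Their median was 0.085, against -0.0043 over all genes, and in 4 (44.4%, with 13.9% of all genes) the GDNF samples lay above the controls. Without control replicate 1 the median was 0.032. Slc2a1, the general glucose transporter, had 207 and 220 in the controls and 263 and 198 with GDNF (0.095, SE 0.16), and -0.11 without GDNF replicate 1. Slc2a5, the fructose transporter, had 261 and 359, and 277 and 381 (0.085, SE 0.20). In both groups its replicate 2 samples were the higher ones.

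Slc45a3 had 55.8 and 77.3 in the controls and 96.8 and 83.9 with GDNF (0.45, SE 0.22), and 0.22 without control replicate 1. Slc5a3, which takes up myo-inositol with sodium, had 140 and 140, and 194 and 150 (0.29, SE 0.17), and 0.10 without GDNF replicate 1. Slc45a4 (0.064) and Slc2a13 (0.13), a proton-coupled inositol carrier, were higher without overlap. Slc37a1 (0.070) and the glucose 6-phosphate carrier Slc37a4 (-0.087) overlapped. Slc50a1 had 285 and 256, and 261 and 244 (-0.10, SE 0.13), the lowest of the class and overlapping. The glucose transporters Slc2a3 and Slc2a4, the latter insulin-responsive, were below the minimum, at 20.1 to 33.4 and 2.20 to 16.4.

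Phosphate transporters were represented by the sodium-coupled carriers Slc20a1 and Slc20a2, 2 of 12 genes for phosphate, sulfate and other anions. Slc20a1 had 498 and 523 in the controls and 603 and 622 with GDNF. The samples of each group were close together and the groups did not overlap. The log2 fold change was 0.26 (SE 0.10, limma unadjusted p = 0.037, adjusted p = 0.999), and leaving out single samples gave 0.23 to 0.30. Slc20a2 had 98.1 and 81.8, and 95.7 and 63.4 (-0.20, SE 0.24), with overlap.

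**Figure D4:**
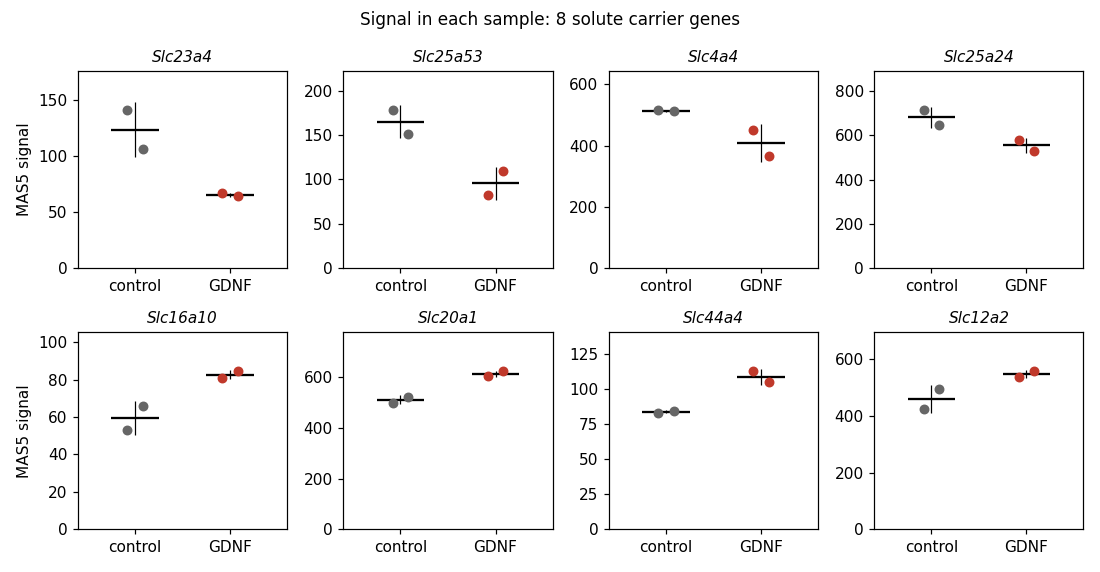
MAS5 signal (y axis, from 0) of 8 solute carrier genes in each control (grey) and GDNF (red) sample, with the group mean as a horizontal line and the SD of 2 samples as a vertical line. Slc23a4, Slc25a53, Slc4a4 and Slc25a24 are lower in both GDNF samples, and Slc16a10, Slc20a1, Slc44a4 and Slc12a2 higher in both.

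Vitamin carriers numbered 6 of 11, 3 higher and 3 lower. Slc23a2, the main ascorbate transporter of most tissues, had 165 and 171 in the controls and 221 and 178 with GDNF, without overlap (0.24, SE 0.15). Without GDNF replicate 1 it was 0.084. Slc5a6, for biotin and pantothenate, had 212 and 218, and 198 and 252 (0.055, SE 0.15). The reduced folate carrier Slc19a1 had 52.6 and 43.3, and 50.7 and 54.7 (0.14, SE 0.21). The thiamine carrier Slc19a2 (-0.097) was lower without overlap, and the riboflavin carrier Slc52a2 (-0.12) overlapped. With Slc23a4, the class had a median of -0.021.

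Carriers of organic ions and choline numbered 6 of 23, 3 higher and 3 lower. Slc44a4, of the choline transporter-like family, had 83.2 and 84.7 in the controls and 112 and 105 with GDNF. The samples of each group were close together, and the log2 fold change was 0.37 (SE 0.16, limma unadjusted p = 0.053, adjusted p = 0.999). Slc44a1, which takes up choline for membrane lipids, had 467 and 421, and 434 and 418 (-0.057, SE 0.11), with overlap. Slc44a2 (0.0017), the carnitine carrier Slc22a5 (0.061) and Slc22a17 (-0.16) overlapped. Slc22a18 had 55.9 and 55.8, and 55.9 and 43.9 (-0.17, SE 0.22) and GDNF replicate 2 lowest.

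Taurine, creatine and serotonin were the substrates of the 3 of 14 genes measured in the neurotransmitter and osmolyte class. Slc6a6, the taurine transporter, had 1232 and 1163 in the controls and 1199 and 1024 with GDNF (-0.11, SE 0.11). A dimmer probe set had 0.49, set by GDNF replicate 1 (204, against 79.2 to 91.3 in the other samples). Slc6a8, the creatine transporter, had 75 and 88.6, and 108 and 80.5 (0.19, SE 0.20). Slc6a4, the serotonin transporter, had 73.2 and 94.1, and 62.9 and 125 (0.097, SE 0.32). Its GDNF samples held both the lowest and the highest of its 4 values.

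Monocarboxylate carriers were 2 of 12 genes. Slc16a1, which carries lactate and pyruvate, had 352 and 373 in the controls and 330 and 337 with GDNF (-0.12, SE 0.11), lower without overlap. Slc16a7, a carrier with a higher affinity for pyruvate, had 136 and 115, and 136 and 103 (-0.079). Slc16a3, a lactate exporter of glycolytic cells, was below the minimum at 21.0 to 47.3. Nucleoside carriers were also 2 genes, of 6. Slc29a3, of lysosomes and mitochondria, had 89.7 and 94.2, and 70.9 and 83.0 (-0.26, SE 0.18), lower without overlap. Slc29a1, the equilibrative carrier of the cell surface, had 124 and 122, and 130 and 101 (-0.11, SE 0.17).

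The lipid class had 4 of 10 genes, all with a lower mean, from -0.16 to -0.0045. Slc27a1, which helps fatty acid uptake, had 383 and 371 in the controls and 352 and 401 with GDNF (-0.0045, SE 0.12). Slc27a4 had 93.1 and 84.3, and 77.1 and 81.6 (-0.16, SE 0.17), lower without overlap. Slc27a3 (-0.012) and Slc10a3 (-0.10) overlapped. Carriers into the Golgi and endoplasmic reticulum were 4 of 6 genes. Slc35a1, for CMP-sialic acid, had 493 and 497, and 506 and 523 (0.056, SE 0.10). Slc35a5 had 237 and 238, and 264 and 268 (0.16, SE 0.12). Both were higher without overlap. Slc33a1, for acetyl-CoA, had 274.3 and 230.4, and 226.9 and 229.6 (-0.14, SE 0.14), lower without overlap by a narrow margin. Slc35a4 overlapped at -0.086. Of 3 genes in no class, Slc66a3 had 279 and 255, and 236 and 247 (-0.14, SE 0.12), lower without overlap. With overlap, Slc66a2 had 106 and 118, and 110 and 132 (0.10, SE 0.17), and the lysosomal sialic acid carrier Slc17a5 had 0.0057.

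Several genes had more than 1 probe set, and these did not always run the same way. Of the 122, 77 had 1 probe set and 45 several. For 31 genes at least 1 dimmer probe set was also tested, 44 probe sets in all, and 14 of them, in 11 genes, had the opposite sign to the brightest. Of the 44, 1 had an unadjusted limma p under 0.05, that of Slc25a48, where 2.73% of all 18625 probe sets tested did.

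Other genes on which solute carriers depend, where tested, were also near equal. The sodium pump sets the sodium gradient that many of them use. Of 12 pump and associated subunits listed, 9 were measured and 8 tested, with 4 higher, 4 lower and a median of -0.013. Those tested were the beta subunits Atp1b1, Atp1b2 and Atp1b3 and Fxyd proteins. The lowest was Fxyd1 (-0.22) and the highest Fxyd5 (0.14). No catalytic alpha subunit was tested. Atp1a4, the only alpha subunit measured, was at 0.6 to 6 on the arrays. The vacuolar proton pump, which acidifies endosomes and lysosomes, had 9 subunits higher and 7 lower of 16 (median 0.041), from Atp6v0e1 (-0.12) to Atp6v0b (0.22). Of 7 chaperones and scaffolds of solute carriers, 3 were higher and 4 lower (median -0.033). Nherf1 and Cltrn were the lowest (-0.14 each) and Pdzk1 the highest (0.26). The mitochondrial pyruvate carrier subunits Mpc1 (-0.10) and Mpc2 (-0.076) overlapped.

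Among the iron uptake partners, 3 of 5 tested were higher (median 0.11), from Steap3 (-0.062) to the ferroxidase Cp (0.16). The 5 organic anion carriers of the SLCO family tested had a median of -0.11, with 2 higher and 3 lower. Slco4a1 had 201 and 232 in the controls and 280 and 276 with GDNF (0.36, limma unadjusted p = 0.027, adjusted p = 0.999), and Slco2a1, a prostaglandin carrier, was the lowest (-0.53) at 24.1 and 29.4, and 26 and 12.6. Of 17 ABC transporters, pumps driven by ATP, 5 were higher and 12 lower (median -0.099), from Abca2 (-0.40) to Abcg1 (0.20). No gene of these partner lists had an adjusted p under 0.05.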

How the data were processed

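RNA of 2 control and 2 GDNF samples of pooled cultured rat ovaries was measured on 1 array each. The deposited values are MAS5 signal intensity on a linear scale, per the submitters' processing notes; the MAS5 version and the scaling target are not given in the sources used here. Probe sets were named by GEO's platform annotation: 20826 had 1 symbol, 436 several and 9780 none, and 57 control probe sets were left out. Log2(signal + 1) was fitted with limma 3.58.1 in R 4.3.3 (lmFit, eBayes with a trend) for the 18625 probe sets above the 40th percentile of mean signal, with Benjamini-Hochberg adjustment over all of them, and tables were made with pandas 2.3.3 in Python 3.11.15. The fit was tested on 20 simulated data sets with 200 changed probe sets each. Changes of 1 log2 unit were recovered in 38.9% of cases and changes of 2 in 84.7%, with 7.3 false calls on average. The differences of the members, -0.89 to 0.47, were smaller than the sizes simulated. The lack of calls therefore does not show that the members were equal. The residual degrees of freedom were 2, and those of the spread shared across probe sets 5.1. The smallest exact permutation p for 2 against 2 samples is 0.333.

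The members, substrate classes and lists were chosen with earlier results of these data known. Classes follow the gene family, except for genes that were assigned individually, such as Slc16a10 and Slc6a9. Slc23a4 was not reassigned and kept the class of its family. The rule for named genes took 53 members. It took a list of follicle transporters and the 10 members with the smallest limma p in each direction without overlap. It also took the brightest, highest and lowest member of each class, except carboxylates, nucleosides and phosphate, which had 2 members each. Genes nearest the signal minimum are given for their values, and other members to account for all. Alternatives were another pseudocount, filter, scaling, variance model, probe set rule and signal minimum, the replicate block and leaving out each sample. Motifs were chosen after the array values were seen. Protein sequences were not analysed here.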

Additional observations from a re-analysis of the deposited data

How the results depend on the processing

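No solute carrier passed the adjusted threshold under any alternative run, and of the 53 members taken by the rule for named genes, 31 kept their direction under all 12 alternatives that give them a value and 22 turned under at least 1. Of all 122, 57 turned when at least 1 of the samples was left out and 65 did not; 44 of those 65 could not, since their groups did not overlap. The count without overlap was 70 to 92 with 1 sample left out, since fewer samples are then compared. At a minimum mean signal of 100, which leaves fewer members, it was 28. These counts do not compare with 44 of 122, and the shares of all genes under these settings were not computed. The median over all members was -0.035 to 0.011 when single samples were left out.

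With single samples left out, the class medians were -0.12 to -0.061 for amino acids, -0.13 to -0.034 for fatty acids, -0.054 to 0.028 for mitochondrial carriers, -0.070 to 0.28 for neurotransmitters and osmolytes, -0.058 to 0.037 for nucleotide sugars, -0.061 to -0.022 for organic ions, -0.059 to 0.059 for sodium and other ions, 0.032 to 0.11 for sugars and -0.088 to 0.053 for vitamins. They were 0.013 to 0.077 for metals, -0.19 to -0.0082 for carboxylates, -0.10 to 0.17 for phosphate, -0.22 to -0.15 for nucleosides and -0.10 to 0.11 for genes in no class. At a minimum signal of 100 the medians were 0.0078 for amino acids and 0.15 for vitamins, the latter from Slc23a2 and Slc5a6 alone. For fatty acids only Slc27a1 was left (-0.0045), for neurotransmitters Slc6a6 (-0.11), for nucleosides Slc29a1 (-0.11) and for phosphate Slc20a1 (0.26). These are values of individual genes, not of a class. At a minimum of 30 the medians were -0.0022 for amino acids, -0.11 for nucleosides and -0.11 for vitamins. A filter at the 60th percentile gave 0.00065 for amino acids and 0.0017 for organic ions, and the mean over all probe sets -0.022 for amino acids; these settings change which genes or probe sets enter.

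Among the 53, signs turned with the mean over all probe sets for Slc35a1 (-0.0054), Slc40a1 (-0.15) and Slc6a6 (0.19), and with quantile normalization for Slc7a11 (0.0027). With 1 sample left out, signs turned for 21 of the 53: Slc1a5 (-0.37 to 0.079), Slc22a18 (-0.34 to 0.0013), Slc25a4 (-0.049 to 0.029), Slc25a48 (-0.12 to 0.74), Slc25a5 (-0.074 to 0.088), Slc27a1 (-0.10 to 0.091), Slc29a1 (-0.29 to 0.070), Slc2a1 (-0.11 to 0.30), Slc2a5 (-0.14 to 0.31), Slc38a2 (-0.0031 to 0.12), Slc39a14 (-0.079 to 0.14), Slc39a8 (-0.60 to 0.071), Slc3a2 (-0.098 to 0.13), Slc40a1 (-0.18 to 0.26), Slc44a1 (-0.13 to 0.017), Slc5a6 (-0.12 to 0.23), Slc66a2 (-0.024 to 0.23), Slc6a6 (-0.23 to 0.0020), Slc6a8 (-0.018 to 0.40), Slc6a9 (-0.20 to 0.28) and Slc7a11 (-0.12 to 0.11). The cause was not tested.

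In the fit with the replicate block, 0 members and 8 of 18625 probe sets were called, with 1 residual degree of freedom. The deviations of same-numbered samples correlated at r = 0.32 across probe sets, which with 2 samples a group is 1 value for both numbers. The samples share only a number, and the block changed no member's call. Between control samples the spread was wider at low signals. Their median gap was 0.191 log2 units for the 62 members under 150 and 0.0872 for the 14 at 500 or more. For the 46 members between these limits it was 0.0943. Between GDNF samples the gap was 0.178 under 150, 0.191 between the limits and 0.0861 at 500 or more.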
